A study of Homo sapiens with 4 samples.

Results

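The genes described here are reported targets of microRNA-7 (miR-7), most of them kinases or kinase subunits, measured in Huh7 cells, a human hepatocellular carcinoma line. They were chosen by name as 9 genes (PAK1, TNK2, PIK3CD, PIK3R3, RPS6KB1, MTOR, PTK2, PSME3 and SETDB1), and 8 of them had probe sets that the platform's probe table pairs with a single gene symbol, among 19140 genes tested. PAK1, which encodes a kinase activated by small GTPases, is not analysed here. The cells had received either the small interfering RNA that the labels call siNTC, the control, or siNF90, which targets NF90, a nuclear factor known to bind double-stranded RNA. Each group held 2 samples of total RNA, 1 per array, and all 4 came from the same cell line. The labels give no time after treatment and no siRNA sequence, and they do not say whether replicates were separate cultures, so p-values reflect only how far these arrays vary, and that variation may be technical. How far NF90 was depleted was not checked, as its own gene is left out here.

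MicroRNAs guide Argonaute proteins to messenger RNAs that pair with their seed, and paired messengers are translated less and are often degraded. miR-7 has been reported to hold back growth factor signalling in several tumour types, through EGFR and through kinases below it. NF90 has been reported to restrain the maturation of miR-7 in liver cancer cells, so the question put to these genes is whether the messengers of reported miR-7 targets lie lower in siNF90 than in siNTC cells. Mature miR-7 itself was not measured on these arrays.

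The miR-7 sequences are shown because the seed defines how a microRNA recognises its targets. They are RefSeq's, with the build GRCh38.p14, and capitals mark the seed, bases 2 to 8 from the 5′ end.
hsa-miR-7-5p: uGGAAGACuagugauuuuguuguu
hsa-miR-7-1-3p: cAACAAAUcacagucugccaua
hsa-miR-7-2-3p: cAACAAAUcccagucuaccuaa
The table gives miR-7-5p at chr9:83969811-83969834 on the minus strand (MIR7-1) and at chr19:4770700-4770723 on the plus strand (MIR7-3). For MIR7-2 it has no entry of miR-7-5p, so these need not be all of its loci. The arms miR-7-1-3p (chr9:83969771-83969792, minus strand) and miR-7-2-3p (chr15:88611896-88611917, plus strand) share another seed with each other. The seed of miR-7-5p occurred in 1 of the 2370 mature names in the table, and the letters that pair with it in a messenger read gucuucc. Whether a given messenger here carries these letters was not examined.

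The deposited values are log2 intensities for probe sets, each of which covers part of a gene. A gene value is the mean of the gene's probe sets whose average over the 4 arrays reached the 40th percentile of all rows of the table, a log2 value of 2.13. A difference is siNF90 minus siNTC on the log2 scale, with its standard error (SE), 95% interval and Benjamini-Hochberg adjusted p from limma over all genes. The 8 genes had 224 probe sets, of which 187 passed the filter, so every one of the 8 had a gene value. The dimmest probe set kept was one of PSME3 at 2.22, with a difference of -0.54, and the brightest one left out was one of PIK3CD at 2.12, with -0.074. The array medians over all rows lay between 2.72 and 2.79, and the arrays correlated at 0.936 to 0.958 across genes (a description, since genes are not independent samples). The lowest correlation was that of the second siNF90 with the second siNTC array. The highest was also between groups, that of the first siNF90 with the first siNTC array. The 2 siNTC arrays correlated at 0.957 and the 2 siNF90 arrays at 0.950.

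The labelled cell type was checked by marker genes, each as the mean of its probe sets above the filter, which sets a floor under dim genes. Of 14 hepatocyte markers 13 were measured, at gene values between 5.68 and 10.9. The 4 endothelial markers measured lay between 3.02 and 3.14 and the 6 fibroblast and stellate markers between 2.23 and 3.68. The 4 leukocyte markers measured ranged from 2.47 to 9.03, and the highest was LYZ, lysozyme, while PTPRC, the defining leukocyte antigen, lay between 2.85 and 3.80 on the 4 arrays.

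None of the 8 messengers passed the test in either direction. Differences were positive, as in 47.5% of all genes, for PIK3CD, SETDB1, RPS6KB1 and MTOR and negative, as in 52.5%, for PTK2, PIK3R3, PSME3 and TNK2. They ran from -0.21 to 0.21. limma called 0 of the 8 genes at an adjusted p of 0.05, where it called 0% of all 19140 genes. It called 0 of the 8 with a trend and robust prior, against 0.251% of all genes. At an unadjusted p under 0.05 there were 0 of the 8 and 8.79% of all genes. The groups did not overlap in 3 of the 8, against 41.1% of all genes. PTK2 and PIK3R3 lay below, as did 22% of all genes, and MTOR lay above, as did 19.2%. The median difference of the 8 was 0.054, with an SD of 0.073 between replicates, beside -0.018 over all genes tested. It turned to -0.063 with the median of probe sets, -0.047 without the second siNTC array and -0.013 without the second siNF90 array. The median of the sizes of their differences was 0.15, beside 0.22.

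**Figure D1:**
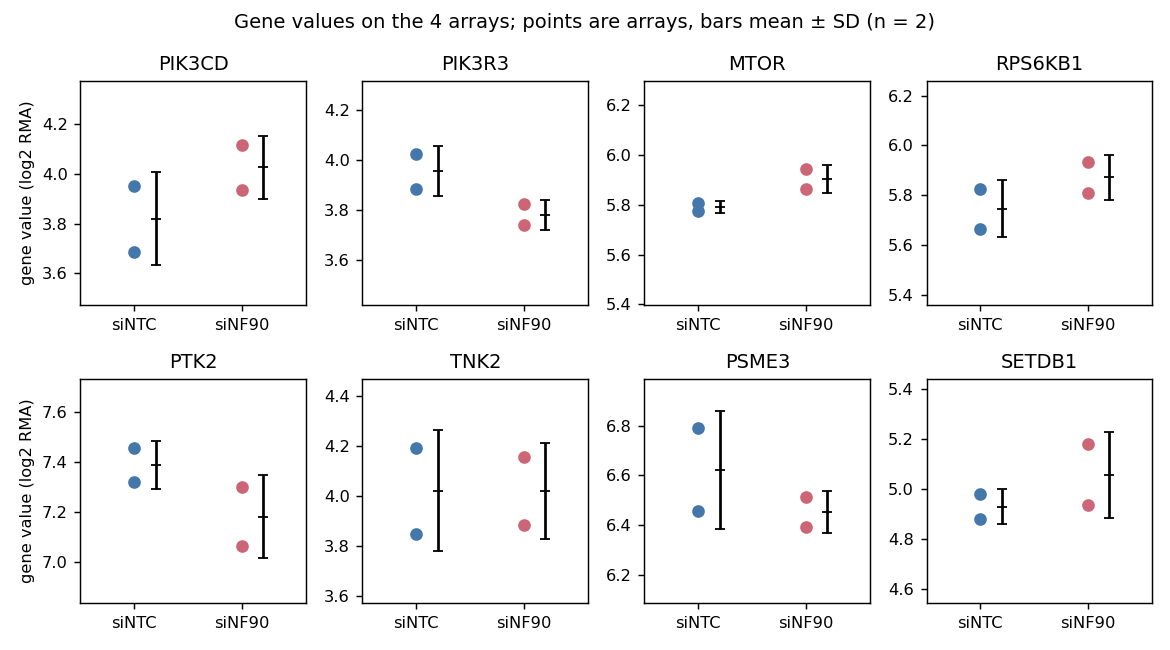
Gene values (log2 RMA) of the 8 measured genes on the 2 siNTC and 2 siNF90 arrays; points are arrays, and bars give the mean ± SD (n = 2 per group). Each panel spans the same height on the log2 scale, and the groups are apart in PIK3R3, MTOR and PTK2 only.

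The PI3K subunits came first in order of signalling. Class I PI3 kinases make the membrane lipid that recruits AKT, and each is a pair of a catalytic and a regulatory subunit. PIK3CD encodes the delta catalytic subunit, best known from leukocytes. Its gene values were 3.69 and 3.95 on the siNTC arrays and 3.94 and 4.12 on the siNF90 arrays. The first siNF90 array lay just below the second siNTC array, so the groups overlapped. The means were 3.82 ± 0.19 and 4.03 ± 0.13 (SD, n = 2 each). They differed by 0.21 (SE 0.20), with a 95% interval of -0.31 to 0.73 and a limma adjusted p of 0.788. The difference ranged from 0.075 without the first siNTC array to 0.34 without the second, and it was 0.53 with the median of its probe sets. Of 15 kept probe sets 10 were higher and 5 lower. The groups were separate in 1 with siNF90 higher and in 1 with siNF90 lower, beside 18% and 20.3% of all probe sets.

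PIK3R3 encodes the gamma regulatory subunit, which binds phosphotyrosines on receptors and adaptors. Its values were 4.03 and 3.88 in siNTC and 3.74 and 3.82 in siNF90 cells, so the siNF90 arrays were both the lower ones. The difference was -0.17 (SE 0.18), with an interval from -0.64 to 0.29 and a limma adjusted p of 0.800. Of its 12 kept probe sets 8 were lower, 6 of them without overlap, and 3 were higher without overlap, where all probe sets gave 20.3% below and 18% above without overlap. The most negative probe set went from 5.58 and 4.88 to 3.74 and 4.51, and the most positive from 4.10 and 3.43 to 4.54 and 4.85. The negative sign of PIK3R3 held in all 14 settings, between -0.32 and -0.10.

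MTOR encodes the kinase shared by both mTOR complexes, which couples nutrients and growth factors to protein synthesis. Its values were 5.77 and 5.81 in siNTC and 5.86 and 5.94 in siNF90 cells. The siNF90 arrays were both the higher ones. The difference of 0.11 (SE 0.17) had an interval from -0.34 to 0.56 and a limma adjusted p of 0.877. RPS6KB1, the S6 kinase that mTOR activates, had 5.83 and 5.66 in siNTC and 5.81 and 5.94 in siNF90 cells. Its groups overlapped, and the difference was 0.13 (SE 0.18) with an interval from -0.35 to 0.60 and a limma adjusted p of 0.864. All 18 of its probe sets passed the filter, 13 higher and 5 lower. The groups were separate in 7 with siNF90 higher and in 2 with siNF90 lower, beside 18% and 20.3% of all probe sets. The sign of RPS6KB1 depended on how probe sets were combined, and its difference was -0.35 with their median.

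PTK2 encodes focal adhesion kinase, which relays signals from integrins. Its values were 7.32 and 7.46 in siNTC and 7.30 and 7.06 in siNF90 cells. The groups did not overlap, but the first siNF90 array lay close to the first siNTC array and the second well below it. The means were 7.39 ± 0.097 and 7.18 ± 0.17 (SD, n = 2 each). The difference was -0.21 (SE 0.19), with an interval from -0.71 to 0.30 and a limma adjusted p of 0.781. Without the second siNF90 array it was -0.088, and with the median of probe sets it was 0.0092. Of the 33 kept probe sets 22 were lower, 10 of them without overlap, and 4 were higher without overlap, beside 20.3% and 18% of all probe sets.

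TNK2 encodes a non-receptor tyrosine kinase that binds active CDC42. Its values were 4.19 and 3.85 in siNTC and 3.88 and 4.16 in siNF90 cells, with each siNF90 array between the siNTC arrays. The difference was -0.0017 (SE 0.22), with an interval from -0.58 to 0.58 and a limma adjusted p of 1.00. Its single probe sets spread widely, from -2.57 to 2.33 with an SD of 1.19 over 17 kept probe sets, and 8 were higher and 9 lower. The groups were separate in 2 with siNF90 higher and in 4 with siNF90 lower, beside 18% and 20.3% of all probe sets. The most negative probe set went from 3.23 and 4.08 to 0.946 and 1.21, and the most positive from 1.66 and 1.91 to 4.35 and 3.88. The low values of both lie below the array medians, and both passed the filter through the group in which they were higher. The antisense transcript TNK2-AS1 had 1 of 4 probe sets kept, at 2.0 and 1.84 in siNTC and 1.53 and 4.63 in siNF90 cells. That probe set passed the filter through the second siNF90 array alone (difference 1.16, SE 1.02, limma adjusted p = 0.772). The sources used here do not say whether sense and antisense signals are kept apart.

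PSME3 and SETDB1 act outside the kinase cascade. PSME3 encodes the gamma proteasome activator, a nuclear cap that promotes breakdown of some proteins without ubiquitin. Its values were 6.79 and 6.46 in siNTC and 6.51 and 6.39 in siNF90 cells, so the groups overlapped. The difference was -0.17 (SE 0.21), with an interval from -0.71 to 0.37 and a limma adjusted p of 0.834. It rested on the first siNTC array, without which it was -0.0020. Of 16 kept probe sets 12 were lower and 4 higher, and the siNF90 arrays were separate and lower in 7 against separate and higher in 0, beside 20.3% and 18% of all probe sets.

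SETDB1 encodes a histone H3 methyltransferase that silences genes and retroelements. Its values were 4.98 and 4.88 in siNTC and 5.18 and 4.93 in siNF90 cells, with the second siNF90 array between the siNTC arrays. The difference was 0.13 (SE 0.19), with an interval from -0.37 to 0.63 and a limma adjusted p of 0.869. Without the first siNF90 array it was 0.0050 and without the second 0.25, and with the median of probe sets it turned to -0.20. Of 27 kept probe sets 14 were higher and 13 lower. The groups were separate in 6 with siNF90 higher and in 3 with siNF90 lower, beside 18% and 20.3% of all probe sets.

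The intervals describe differences in gene values for each gene taken alone, and not directly those in messenger. PIK3CD, PIK3R3 and TNK2 had group means between 3.78 and 4.03, not far above the fibroblast and stellate markers, which reached 3.68. Whether differences of such dim genes are understated was not tested. The lower end of the 95% interval was a 1.63-fold reduction for PTK2 and PSME3, 1.56-fold for PIK3R3 and 1.5-fold for TNK2. For SETDB1, RPS6KB1, MTOR and PIK3CD it was 1.29-fold, 1.28-fold, 1.27-fold and 1.24-fold. Each of the 8 intervals also included 0, and their upper ends lay between a 1.22-fold increase in PIK3R3 and a 1.66-fold increase in PIK3CD. These intervals are not adjusted for the number of genes, and the test called 0 of all genes with 2 arrays per group, so an end of an interval is not a size of change that would have been called.

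**Figure D2:**
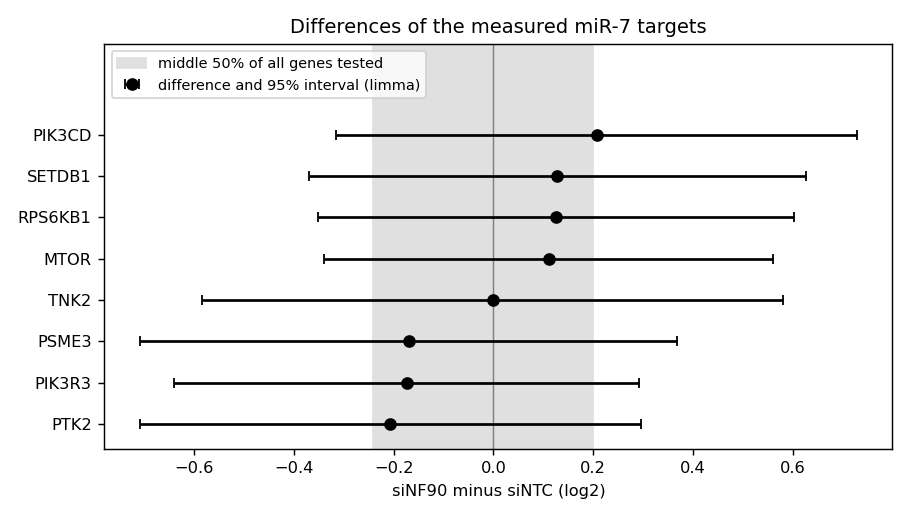
Differences (siNF90 minus siNTC, log2) of the 8 genes with their 95% intervals from limma; the grey band is the middle 50% of all genes tested, from -0.24 to 0.20. Each interval crosses 0, and 7 of the 8 points lie inside the band, with PIK3CD at 0.21 just past its edge.

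Among single probe sets of these genes, positive and negative differences were about equally frequent. Of the 187 kept, 96 were higher in siNF90, which is 51.3% beside 48.4% of all 171120 kept probe sets with a single symbol. The groups were separate with siNF90 higher in 40 and with siNF90 lower in 40, or 21.4% each, where all probe sets gave 18% above and 20.3% below. limma called 0 of them at an adjusted p of 0.05, as it did 0% of all probe sets. At an unadjusted p under 0.05 there were 12, which is 6.42% beside 7.38% of all. TNK2 held 5 of the 12 among 17 kept probe sets, and MTOR 4 among 49. PIK3CD, PTK2 and SETDB1 held 1 each, among 15, 33 and 27 kept.

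**Figure D3:**
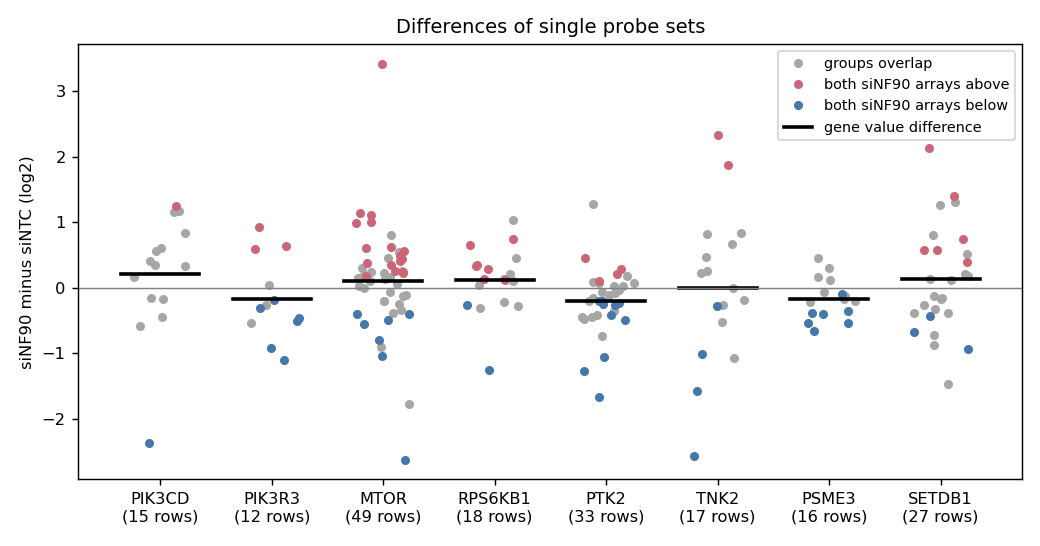
Differences (siNF90 minus siNTC, log2) of the 187 kept probe sets by gene; colours show whether the groups overlapped or siNF90 was separate above or below, and black bars are the differences of the gene values. Probe sets of MTOR, TNK2, SETDB1 and PIK3CD spread over several log2 units around gene differences of -0.0017 to 0.21. Those of PSME3 stay between -0.66 and 0.45.

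MTOR was the 1 gene of the 8 called for unequal probe sets, a call that was lost with a stricter filter. limma's diffSplice, which tests whether the probe sets of a gene change unequally, gave MTOR a Simes adjusted p of 0.00028, the rank of 39 among 16175 genes tested, of which 2.76% were called. The next gene of the 8 was TNK2, with an adjusted p of 0.227. diffSplice takes 1 spread for all probe sets of a gene, from the same 4 arrays. The SEs of single kept MTOR probe sets in limma ran from 0.27 to 1.24. No MTOR probe set passed limma on its own, where the most positive one had an adjusted p of 0.629. The most positive MTOR probe set went from 1.15 and 1.61 on the siNTC arrays to 5.23 and 4.38 on the siNF90 arrays, and the most negative from 3.65 and 4.26 to 2.19 and 0.463. The low values of both lie below the array medians, so no fold is given, and both passed the filter through the group in which they were higher. Of the 49 kept MTOR probe sets 32 were higher and 17 lower, and the groups were separate in 17 with siNF90 higher and in 7 with siNF90 lower, beside 18% and 20.3% of all probe sets. Without the most positive probe set, an alternative chosen after seeing the data, the MTOR gene difference was 0.042 and the diffSplice adjusted p 0.011. The most negative probe set stayed in there, so this p cannot show a call free of such probe sets. With the filter at the 60th percentile, a log2 value of 3.44, both of these probe sets were left out and the adjusted p was 0.742. Leaving out each array in turn kept both of these probe sets, so it cannot show whether the call rests on them. The spread is then taken from the other group alone, and the lone array is assumed to vary like it.

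**Figure D4:**
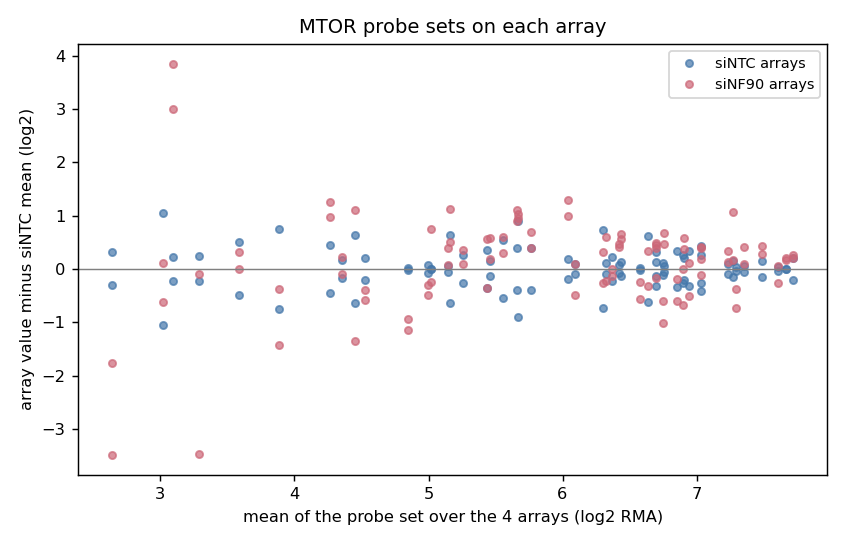
Value of each kept MTOR probe set on each array minus its siNTC mean (log2), against its mean over the 4 arrays (log2 RMA). The widest departures, up to several log2 units, are at means below 3.5, and probe sets with means above 6 stay mostly within 1 of the siNTC mean.

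The probe sets of these genes fell into kinds that differed in spread. In 138 of the 187, each of the 4 values was one that at least 10 rows of the table held on the same array, beside 47.6% of all rows above the filter. This held for all 49 of MTOR, 27 of SETDB1, 17 of TNK2 and 15 of PIK3CD, for 20 of 33 of PTK2 and 6 of 18 of RPS6KB1, and for 3 of 16 of PSME3 and 1 of 12 of PIK3R3. All 12 probe sets with an unadjusted p under 0.05 were among them. Their differences had an SD of 0.85, against 0.38 in the other 49, and their median SD within a group was 0.46 against 0.20. Over the whole table, 9.44% of such probe sets with a single symbol and 5.4% of the others had an unadjusted p under 0.05. Genes with only such probe sets were called unequal by diffSplice in 1.43% of 2243, and the other genes in 2.97% of 13932. The sources used here do not give the number of probes behind a row, and the part of these repeated values in the MTOR result was not tested.

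Genes of the pathways around the 8 did not pass the test either. Of 114 genes in 9 lists of family members, partners and other reported miR-7 targets, 104 were tested. Differences were positive in 51 and negative in 53, and the median of the 104 was -0.0060. limma called 0 of them, also with the trend and robust prior, and 5 had an unadjusted p under 0.05, which is 4.81% beside 8.79% of all genes. Those 5 were BCAR1 and INPPL1, higher, and PRR5, ATF7IP2 and XRCC2, lower, and PRR5 was named after its values were seen. PRR5, a component of mTOR complex 2, had 4.40 and 4.23 in siNTC and 3.10 and 3.51 in siNF90 cells, from 3 probe sets (limma adjusted p = 0.514).

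Among PI3K subunits and lipid phosphatases, 8 of 16 had positive and 8 negative differences, and their median was 0.0077. The ubiquitous catalytic subunits PIK3CA and PIK3CB had -0.044 (SE 0.19) and 0.064 (SE 0.19), and the regulatory subunit PIK3R1 had 0.13 (SE 0.24). INPPL1, a phosphatase that removes the 5-phosphate of the PI3K product, had 5.37 and 5.08 in siNTC and 5.68 and 5.84 in siNF90 cells, a difference of 0.54 (SE 0.20, limma adjusted p = 0.560). PIK3C3, the class III kinase of autophagy, had -0.40 (SE 0.20).

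Of 16 genes of the mTOR complexes, AKT and their upstream control, 5 had positive and 11 negative differences, and the median was -0.10. RPTOR and RICTOR, the scaffolds that define complexes 1 and 2, had -0.10 (SE 0.20) and 0.21 (SE 0.20), and RHEB, the GTPase that activates complex 1, had -0.19 (SE 0.30). Among 12 S6 kinases and translation targets 8 were positive and 4 negative. RPS6KB2, the paralogue of RPS6KB1, had -0.15 (SE 0.22), EEF2K, which phosphorylates elongation factor 2, had 0.33 (SE 0.19), and RPS6KA1 had 0.29 (SE 0.25).

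Of 15 partners of focal adhesion kinase 10 were positive and 5 negative, with a median of 0.099. BCAR1, a docking protein that FAK and SRC phosphorylate, had 4.71 and 4.93 in siNTC and 5.45 and 5.29 in siNF90 cells (difference 0.55, SE 0.19, limma adjusted p = 0.547). CRK, the adaptor that binds BCAR1, had -0.59 (SE 0.25), and PTK2B, the closest relative of PTK2, had -0.044 (SE 0.27). The list of PAK kinases, small GTPases and their partners was split 9 to 9 over 18 genes. PAK2, a relative of PAK1, lay at 6.70 and 6.48 in siNTC and 6.28 and 5.99 in siNF90 cells, without overlap (difference -0.46, SE 0.21, limma adjusted p = 0.611). CFL1, cofilin, had 0.29 (SE 0.48), and TNK1, a relative of TNK2, had -0.025 (SE 0.20).

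Of the proteasome activators and inhibitor 3 were measured. PSME1, a subunit of the cytoplasmic activator, had 0.18 (SE 0.17), and PSME4 had -0.28 (SE 0.17). Among 12 histone methyltransferases of the SETDB1 kind and its partners 7 were positive and 5 negative, with a median of 0.11. ATF7IP2, a relative of the SETDB1 cofactor ATF7IP, had -0.65 (SE 0.20, limma adjusted p = 0.522), SUV39H1 had 0.44 (SE 0.20), and SETDB2 had 0.43 (SE 0.18).

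The 11 other reported miR-7 targets tested included 2 with positive and 9 with negative differences, beside 47.5% and 52.5% of all genes. Their median was -0.14. The groups were separate with siNF90 lower in 5 of them and with siNF90 higher in 0, beside 22% and 19.2% of all genes. limma called 0 of the 11, and 1 had an unadjusted p under 0.05, beside 0% and 8.79% of all genes. XRCC2, a DNA repair gene, and IRS1, an insulin receptor adaptor, differed most, by -0.64 (SE 0.21) and -0.31 (SE 0.20). EGFR had 6.26 and 6.46 in siNTC and 6.56 and 6.45 in siNF90 cells. The lists share no genes with the 8, and whether the 11 and the 8 differ was not tested.

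PTK2 and PIK3CD had the largest differences of the 8, and the genes of the lists with the most similar pattern were found by the root mean square difference of array values after centring each gene on its mean over the 4 arrays. For PTK2 these were NCK2 (0.024), EIF4B (0.035) and SATB1 (0.036), where 22, 63 and 71 other genes of the 19140 were at least as close. For PIK3CD they were ZYX (0.061), TSC1 (0.081) and RELA (0.099), with 160, 363 and 658 other genes as close. With 4 arrays such likeness is a description only.

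**Figure D5:**
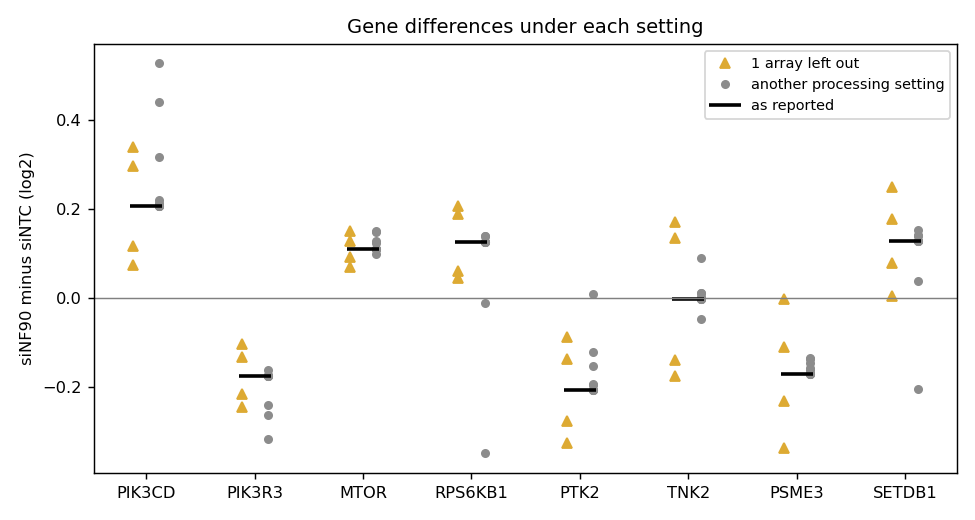
Differences (siNF90 minus siNTC, log2) of the 8 genes as reported (black bars), with 1 array left out (triangles) and under another processing setting (circles). MTOR and PIK3CD are above 0 and PIK3R3 and PSME3 below 0 in every setting, while TNK2, RPS6KB1, PTK2 and SETDB1 fall on both sides.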

How the data were processed

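Per the labels, column-purified total RNA was amplified and turned into labelled cDNA fragments with kits from Affymetrix. Per the labels and the submitters' processing notes, the authors deposited log2 values made by RMA-sketch in Affymetrix Expression Console. The log base was taken from the method and the values. For the program version and the genome build, the sources used here give nothing. There were 352859 rows for 4 arrays, of which 257971 had 1 gene symbol in the platform's table, 17460 several and 77428 none. Only rows with 1 symbol entered gene values (171120 rows, 19140 genes). Groups came from the sample titles. Tests used limma 3.58.1 in R 4.3.3 (lmFit, eBayes, diffSplice), two-sided, without covariates, at an adjusted p of 0.05. The number of arrays limits the precision. Older symbols were matched through the RefSeq gene table (GRCh38.p14), which was not used for gene coordinates. The 8 genes and all lists were chosen with earlier results of these data known. All 9 genes were to be named, and from each list the 2 largest differences at a mean gene value of at least 4 and the relatives of the 9. As a check of pairing by replicate number, array deviations within groups had r = -0.0118 over all genes. Alternatives were other filters, the median of rows, at least 50% of rows kept, identical rows once, renormalization, another prior, a replicate block and each array left out.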

Additional observations from a re-analysis of the deposited data

How the results depend on the processing

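Of 105 alternative values of the 8 gene differences, 95 kept their sign, all without a call, and 10 changed it. TNK2, which lay at -0.0017, had 0.091 with the filter at the 60th percentile, 0.011 with the median of rows, 0.0028 with quantile normalization again, 0.012 with arrays centred on their median, and -0.17 to 0.17 when each array was left out. RPS6KB1 had -0.012 with the filter at the 60th percentile. With the median of rows RPS6KB1 had -0.35, SETDB1 -0.20 and PTK2 0.0092. The median of the 8 was -0.063 with the median of rows and -0.047 to 0.084 when each array was left out. The number of genes called was 4 without the dim filter and 48 with a trend and robust prior, where 11 probe sets were called, none of them among the 8 genes. The 446 genes with unequal probe sets became 287 with the replicate number as a block, and 132 to 800 when an array was left out, 132 without the second and 800 without the first siNF90 array and 196 without the second siNTC array. The block changed no call of the 8 genes, and with 2 pairs the numbers are not shown to pair the arrays. The cause of these changes was not tested.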

Other observations

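Of the genes that carry miR-7, those at MIR7-1 and MIR7-3 were read from the same arrays, after their values were seen. HNRNPK, an RNA-binding protein gene whose intron holds MIR7-1, had gene values of 8.77 and 8.74 in siNTC and 8.69 and 8.66 in siNF90 cells, from 13 probe sets. The siNF90 arrays were both the lower ones, and the difference of -0.083 (SE 0.17) had a limma adjusted p of 0.909. MIR7-3HG, the host transcript of MIR7-3, had 1 of 3 probe sets above the dim filter, at 2.0 and 2.40 in siNTC and 2.63 and 2.09 in siNF90 cells. The 1 probe set named for MIR7-3 alone was below the filter on average, at 1.55. These probe sets do not measure mature miR-7.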
